A study of Danio rerio with 4 samples.

Results

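The tubulin genes tubb5, tuba8l3 and tuba1b, were followed in zebrafish eyes after the optic nerve had been cut. Every probe that the array carried for them was taken, by the RefSeq accession of the probe or otherwise by the gene symbol in its name. This gave 9 of 14067 zebrafish probes (4 for tubb5, 3 for tuba8l3 and 2 for tuba1b), for 3 of the 5099 genes that could be named. The genes were selected on their injured-over-sham ratios on these same arrays, already known when the list was drawn up, so those ratios are given below as a description and carry no test.

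Tubulin dimers of 1 alpha and 1 beta chain are the building blocks of microtubules, the hollow filaments that give an axon its shape and serve as tracks for transport. A neuron that regrows its axon needs new tubulin along the growing shaft, and the retinal ganglion cells of fish, unlike those of mammals, can grow theirs back after the optic nerve is cut. Vertebrates carry several alpha and beta genes with closely similar proteins. Tubb5 encodes a beta chain, and tuba8l3 and tuba1b each encode an alpha chain. In the RefSeq annotation of the GRCz12tu assembly, used here for names and neighbours only, tuba1b lies next to the alpha-tubulin gene tuba1a and near tuba1c, and tuba8l3 lies beside tuba8l5. No probe of the array was named for tuba1a, tuba1c or tuba8l5.

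Injured eyes came from wild-type pet-shop zebrafish (line zdr) whose eye muscles and optic nerve were cut, and sham eyes from fish that had the muscles cut with the nerve left whole. Both were sampled at 3, 24 and 168 h after surgery. Unoperated eyes were left eyes of control fish with no treatment. The lens and sclera were removed, and the RNA of several fish was pooled for each sample, so a pool and not a fish was the unit of replication. The age of the fish is not given in the sources used here. Each of 9 two-colour arrays set 1 injured pool against 1 sham pool, 3 arrays per time, and 2 further arrays set 3 unoperated pools against each other, 1 of them on both arrays, by the array names. The labels speak of 4 unoperated samples, and the conflict could not be settled here. Injured RNA carried the dye Cy5 on 1 array of each time and Cy3 on the other two by the array names. The labels state Cy5 throughout, and the authors' deposited table followed the array names (r across probes 0.847, 0.845 and 0.823 at 3, 24 and 168 h, against -0.43, -0.48 and -0.40 for the reading of the labels). All ratios below are log2 of injured over sham by the array names, and a fitted value with its standard error (SE) comes from 1 fit of the 9 arrays that also holds a dye effect.

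Brightness decides how far a probe can be read. A spot was counted as above the empty positions of its array when its signal exceeded the 95th percentile of the positions that held no probe. By that limit 17.2% to 44.8% of zebrafish probes were above in the Cy5 channel of the 9 arrays, and 38.7% to 71.9% in the Cy3 channel. A probe in Cy5 was therefore more often below the limit than the same probe in Cy3. Across all probes, 0 of 14067 passed an adjusted p of 0.05 in limma at 3 h, 0 of 14065 at 24 h and 0 of 14067 at 168 h (0.0% at each time), with 630, 703 and 1101 at an unadjusted p under 0.05. Those counts are 4.48%, 5.0% and 7.83% of the probes, and the average over times gave 7.49%.

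The brightest tubb5 probe, probe 1 in what follows, stood apart at 168 h, and at no earlier time. Its mean intensity was at the 89.8th percentile of all probes, and it was above the empty positions in 9 of 9 injured and 9 of 9 sham channels. At 168 h the scanner read intensities of 2376, 4273 and 4048 in the injured pools, against 569, 987 and 697 in the sham pools. Every injured pool was brighter than every sham pool, and no pixel of these spots was saturated. After normalisation the log2 ratios were 1.83, 2.54 and 2.47 on the 3 arrays. The fitted value was 2.31 ± 0.33 (SE, n = 3 arrays), a 4.95-fold higher signal in injured eyes, and it was rank 1 of all zebrafish probes at that time. Array 2, which had injured RNA in Cy5, gave 2.54, and arrays 1 and 3, which had it in Cy3, gave 1.83 and 2.47.

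Before 168 h the same tubb5 probe showed no common direction. At 3 h its log2 ratios were -0.53, 0.87 and 0.14 (fitted 0.19 ± 0.33). At 24 h they were -0.38, 0.23 and 0.05 (fitted -0.01 ± 0.33). The arrays of both times lay on either side of 0. The fitted difference between 168 h and 24 h was 2.31 ± 0.46, and that between 168 h and 3 h was 2.12 ± 0.46.

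Probe 1 of tuba8l3 was higher in injured eyes on every array. It lay at the 82.8th percentile of brightness and was above the empty positions in 9 of 9 injured channels and in 6 of 9 sham channels. At 3 h its log2 ratios were 0.46, 0.12 and 0.58 (fitted 0.40 ± 0.31, 1.32-fold). At 24 h they were 0.81, 1.21 and 1.21 (fitted 1.09 ± 0.31, 2.13-fold), and at 168 h they were 0.81, 1.20 and 1.97 (fitted 1.34 ± 0.31, 2.54-fold). All 9 ratios were above 0, which 0.327% of all probes showed. Averaged over the times the value was 0.95 ± 0.19, rank 6 of all probes.

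The tuba8l3 ratios were smallest at 3 h, and those of 24 and 168 h overlapped. The fitted difference between 168 h and 24 h was 0.25 ± 0.43, within its error, and that between 24 h and 3 h was 0.69 ± 0.43. At 168 h the intensities were 2058, 1656 and 1834 in injured pools, against 873, 967 and 340 in sham pools. The last of these sham spots was not above the empty positions, and on that array the ratio was the highest of the 9. Without array 3 the 168 h value was 1.01, and without array 1 it was 1.59. At 24 h the intensities were 522, 1718 and 630 in injured pools, against 449, 535 and 596 in sham pools, and before dye normalisation the groups overlapped.

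Probe 1 of tuba1b was dimmer, at the 62.6th percentile, and its ratios did not settle on a direction before 168 h. It was above the empty positions in 8 of 9 injured channels but in only 3 of 9 sham channels, and those 3 were the arrays with sham RNA in Cy3. At 3 h its log2 ratios were 2.63, 1.27 and -1.53 (fitted 0.62 ± 0.53). The arrays with injured RNA in Cy3 gave the high values and the one with injured RNA in Cy5 the low one. At 24 h the ratios were -1.31, 0.09 and 0.47 (fitted -0.42 ± 0.53). At 168 h they were 0.92, 0.35 and 1.17 (fitted 0.64 ± 0.53, 1.56-fold), all above 0, and the error of the fit is nearly as large as the value. That error draws on the spread at all 3 times and, as limma moderates it, on the spread of all probes. The SD of the 3 ratios was 2.12 at 3 h, 0.94 at 24 h and 0.42 at 168 h. A single array turned the direction of the earlier values. Without array 1 the 3 h value was -0.13 and without array 3 it was 2.05, and the 24 h value was 0.28 without array 1 and -1.66 without array 3.

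**Figure D1:**
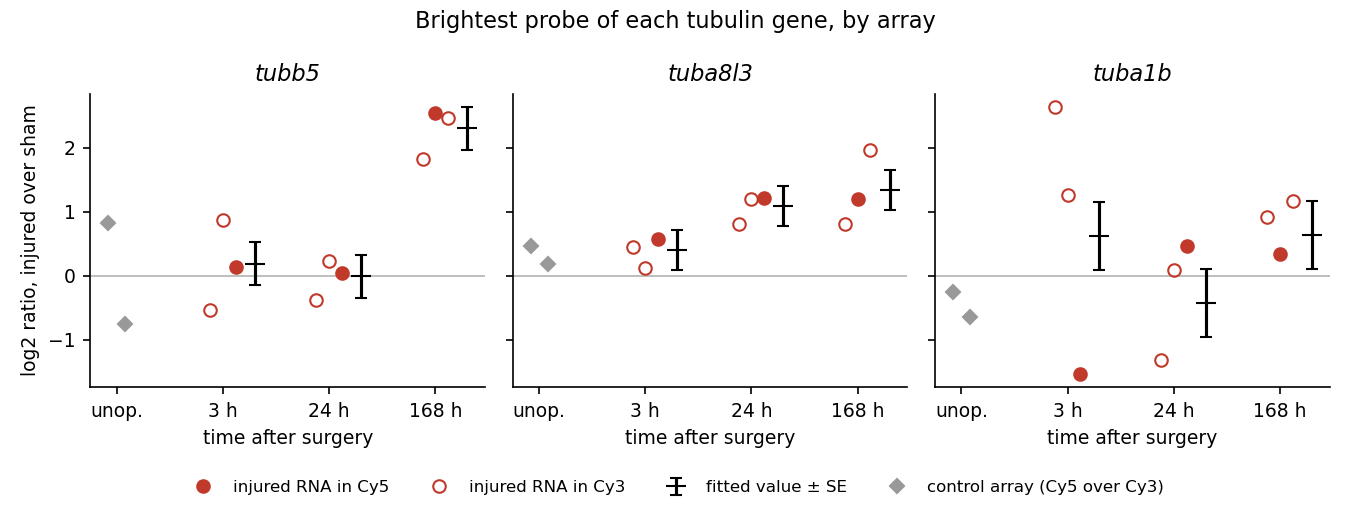
Log2 ratio of injured over sham (vertical axis) for the brightest probe of tubb5, tuba8l3 and tuba1b on each array, with the 2 control arrays (Cy5 over Cy3 of unoperated pools) at the left of each panel. Filled circles are arrays with injured RNA in Cy5, open circles arrays with it in Cy3, and black bars the fitted value ± SE. The tubb5 ratios at 168 h, 1.83 to 2.54, stand above all its other arrays, the tuba8l3 ratios are above 0 on 9 of 9 arrays, and the tuba1b ratios at 3 h run from -1.53 to 2.63.

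The control arrays show how far the same probes differ with no operation. Between unoperated pools the tubb5 ratio was 0.82 on 1 array and -0.75 on the other, that of tuba8l3 was 0.46 and 0.18, and that of tuba1b was -0.24 and -0.63. The sign has no meaning here. The tubb5 ratios at 3 and 24 h were of about the size seen between unoperated pools, and the 168 h ratios were larger than both. The 3 h ratios of tuba8l3, 0.12 to 0.58, overlapped those of its control arrays, whereas the ratios at 24 and 168 h, from 0.81 upward, did not.

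The dye effect, Cy5 over Cy3, comes from the same ratios as the values above and is likewise a description. For the brightest probes of tubb5, tuba8l3 and tuba1b it was 0.08 ± 0.20, 0.05 ± 0.19 and -0.52 ± 0.32 (log2 ± SE). For the dimmer tubb5 probes it was 0.49 ± 0.23, 0.50 ± 0.21 and 0.63 ± 0.20. For the dimmer tuba8l3 probes it was -0.62 ± 0.28 and -0.49 ± 0.23, and for the dimmer tuba1b probe 0.06 ± 0.18.

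Read as single channels, the level of a probe can be set side by side across all pools. Levels are log2 after normalisation of both channels of every array, as mean ± SD of 3 pools. At 168 h tubb5 averaged 11.36 ± 0.41 in injured eyes and 9.08 ± 0.03 in sham eyes. At 24 h it averaged 9.82 ± 0.75 in injured eyes and 9.85 ± 1.03 in sham eyes, and at 3 h 9.65 ± 1.00 in injured eyes and 9.49 ± 0.40 in sham eyes. Unoperated eyes averaged 9.21 ± 0.02. The injured pools at 168 h headed this order and the sham pools of the same time closed it. The groups between them differed by less than their spread. Of all pools, 1 sham pool at 24 h reached 11.05, above the lowest injured pool at 168 h, which read 10.89. The narrow SD of the unoperated pools rests on a mean of readings that were far apart: the pool that the array names put on both control arrays read 10.03 on 1 of them and 8.44 on the other, a gap of 1.58.

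For tuba8l3 the level averaged 8.74 ± 0.54 in injured and 8.36 ± 0.46 in sham eyes at 3 h. It averaged 9.44 ± 0.98 in injured and 8.37 ± 0.76 in sham eyes at 24 h, and 10.42 ± 0.25 in injured and 9.09 ± 0.81 in sham eyes at 168 h. Unoperated eyes averaged 8.66 ± 0.19. The injured pools at 168 h, 10.25 to 10.70, were above every other pool, though the highest injured pool at 24 h came close with 10.24. At 3 and 24 h the ranges of injured and sham pools overlapped, and the difference there was seen only within arrays. Below the injured pools of 168 and 24 h the groups differed by less than their spread.

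For tuba1b the level averaged 8.56 ± 1.07 in injured and 7.76 ± 1.29 in sham eyes at 3 h. It averaged 8.09 ± 0.87 in injured and 8.34 ± 0.23 in sham eyes at 24 h, and 8.53 ± 0.36 in injured and 7.72 ± 0.17 in sham eyes at 168 h. Unoperated eyes averaged 8.23 ± 0.26, between the injured and the sham mean of 168 h. At 168 h the lowest injured pool, 8.22, was above the highest sham pool, 7.87, and at the other times the groups overlapped. Before normalisation the groups overlapped at 168 h too, with intensities of 552, 534 and 798 in injured pools and 314, 654 and 417 in sham pools. Of these sham spots 1 of 3 was above the empty positions.

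**Figure D2:**
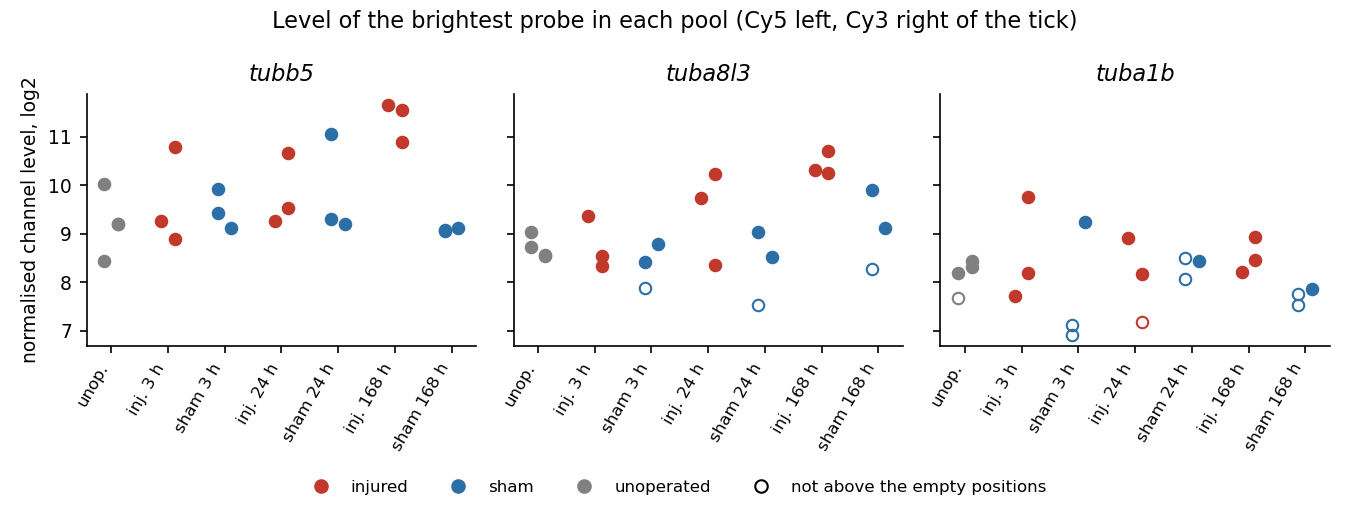
Normalised channel level (log2, vertical axis) of the brightest probe of each gene in every pool, with unoperated pools first and then injured and sham pools at each time. Cy5 readings are drawn left of the tick and Cy3 readings right of it, and open circles mark spots not above the empty positions. The injured pools at 168 h lie between 10.89 and 11.65 for tubb5 and between 10.25 and 10.70 for tuba8l3, and most tuba1b sham spots are open.

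In the main fit the further probes of the same genes did not repeat these values. From lowest to highest probe, the fitted values at 168 h spanned 2.56 for tubb5, 1.51 for tuba8l3 and 0.40 for tuba1b. Over 1805 genes with several probes the median span was 0.50 and the 95th percentile 1.41. The spans of tubb5, tuba8l3 and tuba1b lay at the 100th, 96.7th and 40th percentile. A span from lowest to highest tends to widen with the number of probes, here 4, 3 and 2, and the percentiles were not matched for it. The genes were chosen on these ratios, so the spans are a description. For tubb5, probe 2 (33.5th percentile of brightness) was above the empty positions in 3 of 3 injured and 2 of 3 sham channels at 168 h. Its log2 ratios there were -0.54, 1.57 and 0.81, with a fitted value of 0.78 ± 0.38. Its intensities were 534, 1067 and 820 in injured pools and 488, 801 and 466 in sham pools, and the groups overlapped. At 24 h none of its channels passed the limit. At 3 h 1 injured and no sham channel did, and on that array the log2 ratio was -0.0036, so no fold is given. Probes 3 and 4 of tubb5 passed the limit on 0 of 9 arrays, and they get no fold. The plot of all 9 probes shows them at the dim end.

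For tuba8l3, probe 2 (50.2nd percentile) was above the empty positions on 4 arrays and probe 3 (35.1st percentile) on 7. At 168 h probe 2 gave 1.56, -1.04 and -0.40 (fitted -0.17 ± 0.46), with 1 injured and 1 sham channel above the empty positions. Probe 3 gave 1.07, 0.98 and 0.23 (fitted 0.59 ± 0.38), with 2 injured and 1 sham channel above, and -0.16 without array 2. At 24 h probe 3 stood at 0.10 ± 0.38, where probe 1 stood at 1.09, and probe 2 passed the limit in none of its channels. At 3 h they stood at 0.00 ± 0.46 (probe 2) and 0.68 ± 0.38 (probe 3). For tuba1b, probe 2 was above the empty positions in a single spot, a sham pool at 24 h, and gets no fold.

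Agreement over the 9 arrays was weak as well. Pearson's r between probes 1 and 2 of tubb5 was 0.54, with the same sign on 8 of 9 arrays. Between probe 1 of tubb5 and its probes 3 and 4 it was -0.18 and 0.14, with the same sign on 4 and 6 arrays. Between probe 1 of tuba8l3 and its probes 2 and 3 it was -0.36 and -0.43, with the same sign on 4 and 7 arrays. Between the tuba1b probes it was 0.43, with the same sign on 5 arrays. These are descriptions over arrays that share pools and dyes between probes. Of the 9 probes 4 were above 0 on 3 of 3 arrays at 168 h, against 10.5% of all probes. At 24 h this held for 1 of 9 (10.7% of all probes) and at 3 h for 1 of 9 (9.34%). A fitted log2 above 1 was reached by 2 of 9 at 168 h (1.44% of all probes), by 1 at 24 h (0.519%) and by 0 at 3 h (0.626%). Those were the brightest probes of tubb5 and tuba8l3.

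**Figure D3:**
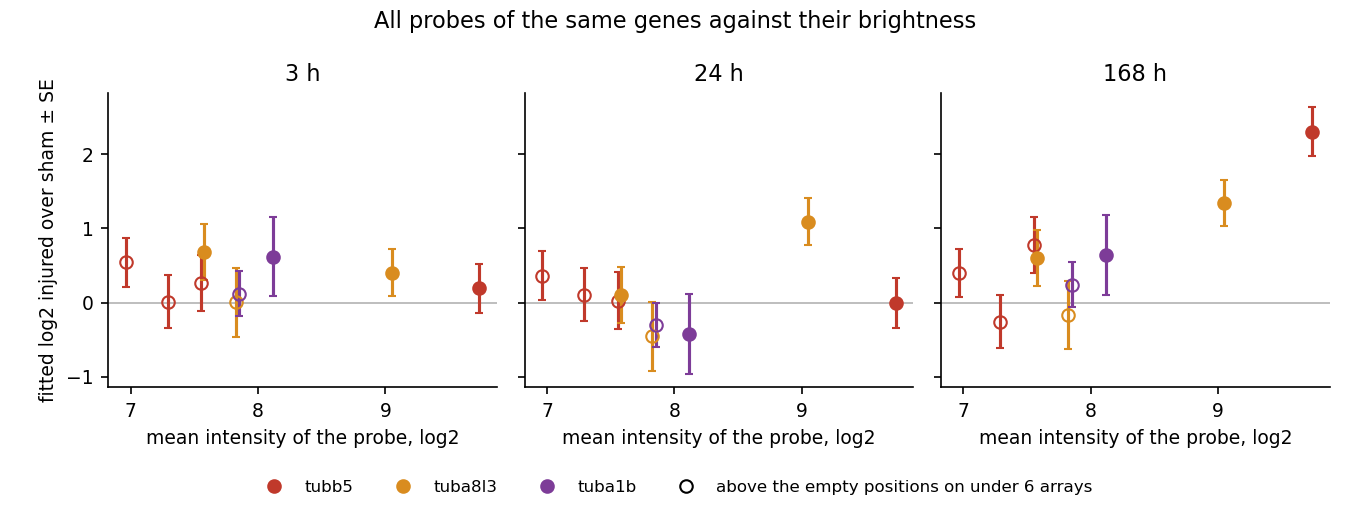
Fitted log2 injured over sham ± SE (vertical axis) of all 9 probes against their mean log2 intensity (horizontal axis) at 3, 24 and 168 h. Filled circles are probes above the empty positions on at least 6 arrays. At 168 h the 2 brightest probes, of tubb5 and tuba8l3, stand at 2.31 and 1.34, and the 7 dimmer probes lie between -0.26 and 0.78.

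The authors' deposited table gives a log2 value for each of these probes at each time. At 168 h the authors' deposited table has 1.81 for the brightest tubb5 probe, 0.17 for its probe 2, -0.18 for probe 3 and 0.27 for probe 4. For the brightest tuba8l3 probe the authors' deposited table has 0.33, 0.76 and 1.09 at 3, 24 and 168 h, and for the brightest tuba1b probe it has 0.20, -0.09 and 0.39. At 168 h these values of the brightest probes were smaller than the fitted ones for all 3 genes, and the brightest tubb5 probe again stood above its other probes.

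The other tubulin genes on the array, 11 genes with 43 probes, serve as the nearest comparison. None of the 43 probes passed in limma at any time. At an unadjusted p under 0.05 and above 0 stood 0 probes at 3 h (2.3% of all probes), 1 at 24 h (2.23%) and 8 at 168 h (4.23%). The 8 are 18.6% of the 43. They are not independent, since 5 of them were probes of 1 gene, tuba8l4, and the others were 1 each of tuba5, tuba7l and tubb4b. Below 0 at the same p in limma stood 0, 1 and 0 of the 43 at 3, 24 and 168 h, against 306, 390 and 506 of all probes. The 1 at 24 h was probe 6 of tubb4b, with log2 ratios of 0.23, -0.23 and -2.64 (fitted -1.20 ± 0.38). The median over the 43 probes was 0.05, 0.09 and 0.16 at 3, 24 and 168 h, against 0.00, -0.01 and 0.00 over all probes. Over the brightest probe of each of the 11 genes it was 0.24, -0.23 and -0.06.

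The alpha tubulin tuba8l4 came closest to tuba8l3. Its brightest probe gave 0.39, -0.21 and -0.21 at 3 h, 0.21, 0.74 and 0.89 at 24 h, and 0.87, 0.95 and 1.55 at 168 h. The fitted value at 168 h was 1.12 ± 0.31, or 2.17-fold, which did not pass (adjusted p = 0.404 in limma), and it was 0.61 ± 0.31 at 24 h and -0.02 ± 0.31 at 3 h. Unlike the probes of tuba8l3, several probes of tuba8l4 gave like values. Its next 3 probes in brightness, each above the empty positions on 9 arrays, stood at 0.81, 0.95 and 0.90 at 168 h and at 0.55, 0.60 and 0.91 at 24 h. They were above 0 on 3 of 3 arrays at 168 h (adjusted p = 0.53, 0.50 and 0.489 in limma). Of its other 6 probes, fitted values at 168 h ran from -0.11 to 0.69. One of them, probe 6, was above 0 on each of the 6 arrays with injured RNA in Cy3 and below 0 on each of the 3 with injured RNA in Cy5, and its Cy5 over Cy3 effect was -1.23 ± 0.23 (adjusted p = 0.0033 in limma, past the threshold as for 11.1% of all probes).

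The remaining tubulins showed smaller or less steady values. The beta tubulin tubb4b, with 12 probes, stood at 0.49 ± 0.30 at 168 h on its brightest probe, and its other probes ran from -0.23 to 1.15. The highest of these was above the empty positions on 5 arrays. Among alpha tubulins, the brightest probes of tuba4l, tuba8l2, tuba5, tuba2 and tuba7l stood at 0.37, -0.04, -0.06, -0.30 and -0.70 at 168 h. The second probe of tuba7l stood at 0.88, so its probes differed in sign. The third probe of tuba5 stood at 0.98 and was above the empty positions on 1 array. The second beta tubulin of the list, tubb2, stood at -0.19 on its brighter probe. The rarer tubulins of centrioles and centrosomes, tube1 (epsilon), tubd1 (delta) and tubg1 (gamma), stood at 0.19, -0.13 and -0.49, and tubd1 was above the empty positions on 0 arrays.

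**Figure D4:**
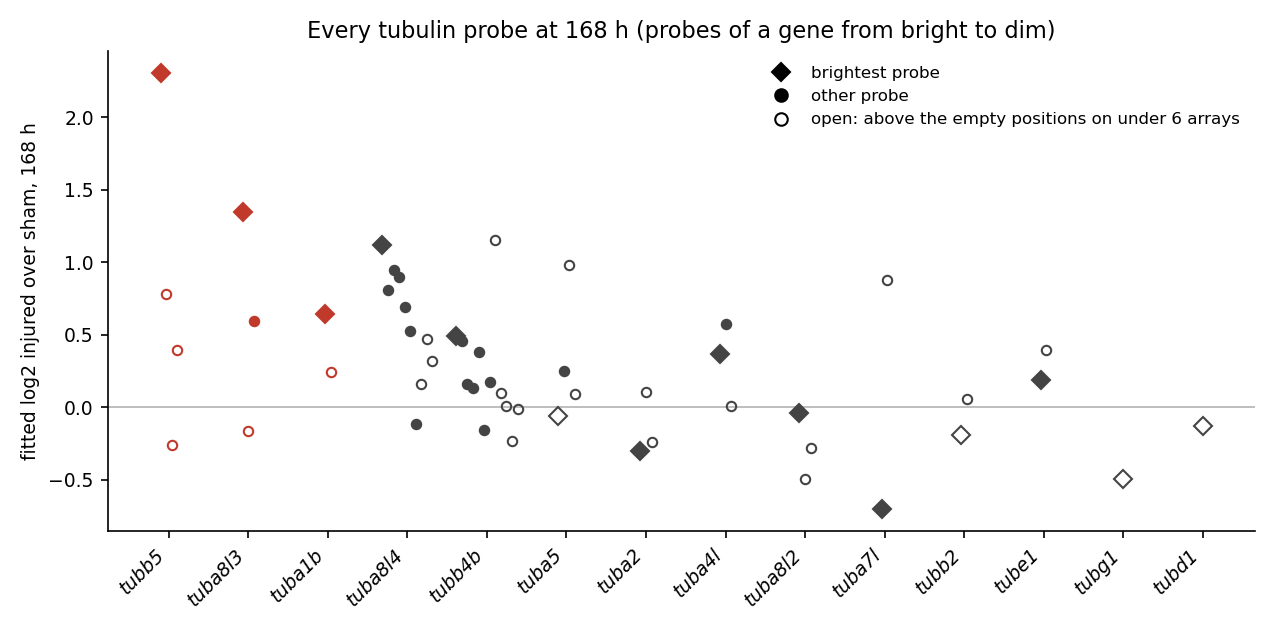
Fitted log2 injured over sham at 168 h (vertical axis) of every tubulin probe, by gene, with tubb5, tuba8l3 and tuba1b in red at the left and the other tubulins in grey. Diamonds are the brightest probe of a gene, and open symbols are probes above the empty positions on under 6 arrays. The brightest tubb5 probe at 2.31 is the highest of the 52 tubulin probes, and 4 filled tuba8l4 symbols lie between 0.81 and 1.12.

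Genes whose proteins fold, modify or bind tubulin were read next, from lists chosen with earlier results of these data known. Together with the other tubulins these held 58 measured genes. In limma 0 of the 58 passed at 3, 24 or 168 h or for the average over times (smallest adjusted p 0.404). At 168 h 1 stood above 0 and 3 below 0 at an unadjusted p under 0.05 (3.6% of all probes below 0), and the median of the 58 was 0.06, against 0.00 over all named genes.

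Among the folding genes, chaperonin and prefoldin subunits, which fold newly made tubulin and actin, had 15 of 16 listed genes on the array. Their median was 0.04, 0.21 and 0.27 at 3, 24 and 168 h, with 9, 13 and 12 of 15 above 0, against 2537, 2540 and 2553 of 5096 named genes. The medians of single arrays were -0.20, -0.14 and 0.07 at 3 h, and 0.08, 0.01 and 0.30 at 24 h. At 168 h they were -0.10, 0.55 and -0.17, so there only the array with injured RNA in Cy5 was above 0. The chaperonin helper txndc9 averaged 0.38 ± 0.18 over the times and the prefoldin subunit vbp1 0.30 ± 0.17. Below 0 stood the prefoldin subunit pfdn2 (-0.32 ± 0.21 on average, -1.01 ± 0.36 at 168 h). The chaperonin subunit cct6a was near 0 (-0.02 ± 0.21), with its 6 other probes between -0.32 and 0.53. Of the cofactors that build alpha-beta dimers, tbca averaged 0.37 ± 0.18 (above 0 on 8 of 9 arrays), tbcb averaged 0.31 ± 0.27, and the small GTPase arl2, above the empty positions on 0 arrays, averaged -0.01 ± 0.19.

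Genes that act on microtubules stood on both sides of 0. Of the 22 measured genes that bind or sever microtubules 5, 9 and 11 were above 0 at 3, 24 and 168 h. All named genes gave 2537, 2540 and 2553 of 5096. The medians of the 22 were -0.08, -0.04 and 0.00, and those of the single arrays at 3 h were -0.07, -0.30 and 0.13. The dynein regulator pafah1b1a averaged 0.43 ± 0.21 over the times (its other probe -0.05) and its partner nde1 -0.40 ± 0.18. The severing enzyme katna1 averaged -0.40 ± 0.20, with its other probe at 0.13, and the neuronal dihydropyrimidinase-like gene dpysl5a 0.28 ± 0.19 with no array above the empty positions. In the gamma-tubulin complex, which starts new microtubules, tubgcp2 averaged 0.24 ± 0.31 (other probes -0.08 and -0.33) and cdk5rap2 0.09 ± 0.20. Its targeting subunit nedd1, above the empty positions on 5 arrays, averaged -1.12 ± 0.27 (adjusted p = 0.489 in limma). The other nedd1 probes, above on 3 and 0 arrays, stood at -0.40 and 0.27. Of 3 measured enzymes that modify tubulin, the carboxypeptidase agbl5 averaged -0.19 ± 0.24 and the deacetylase sirt2 -0.14 ± 0.24. At 168 h alone agbl5 stood at -0.95 ± 0.39 and sirt2 at -0.72 ± 0.40, and 1 of the 3 enzymes was above 0. The sirt2 probe was above the empty positions on 4 arrays.

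The genes most alike in pattern were found by Pearson's r of the log2 ratios over the 9 arrays, among 2731 named genes above the empty positions on at least 6 of them. For tubb5 these were fabp3 (r = 0.91, 1.11 ± 0.30 at 168 h), fthl31 (0.85), hspa8 (0.83), atad3 (0.82) and cdh2 (0.81). For tuba8l3 they were tuba8l4 (0.90), rpl24 (0.89), mettl14 (0.87), emc4 (0.86) and hsdl2 (0.86). For tuba1b they were hoxa3a (0.92), imp4 (0.89), actb1 (0.87), atp1a2a (0.86) and mpped2 (0.85). The median r over all candidates was -0.05 for tubb5, -0.01 for tuba8l3 and 0.07 for tuba1b. The genes named are the 5 highest of 2731 values of r over only 9 arrays, so their r is high through selection too. How high unrelated genes would reach was not tested. Among themselves the brightest probes correlated at 0.52 (tubb5 and tuba8l3), 0.18 (tubb5 and tuba1b) and -0.04 (tuba8l3 and tuba1b). No gene stood on more than 1 of the 3 lists of 5.

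Eyes without lens and sclera still hold many cell types, and in pooled tissue fewer cells of a type and less RNA per cell cannot be told apart. At 168 h, when the tubb5 ratio stood at 2.31, 9 of 10 measured rod genes were below 0 with a median of -0.98. Their summed channel level was 62475 to 63340 in injured eyes and 77069 to 178015 in sham eyes, with no overlap. Of 13 cone genes 12 were below 0 (median -0.56). Sums leave out genes above the empty positions on 0 arrays. The cone sum, over 12 genes, was 69760 to 140034 in injured eyes and 109819 to 185378 in sham eyes. The single-array medians at 168 h were -0.13, -1.61 and -0.84 for the rod genes and 0.15, -1.15 and -0.56 for the cone genes. The lowest median of both lists was on the array with injured RNA in Cy5. Of 6 pigment epithelium genes 5 were above 0 (median 0.50), and 3 of the 6 were above the empty positions on at least 6 arrays. The sum over 5 of them was 3321 to 6599 in injured eyes and 2106 to 2493 in sham eyes. Among them rpe65a stood at 1.61 ± 0.40, dct at 0.42 ± 0.30 and mitfa, above the empty positions on 2 arrays, at -0.03 ± 0.32. Retinal ganglion cell genes, the markers of the neurons whose axons were cut, had a median of 0.04 with 9 of 16 above 0. The sum over 15 of them was 12101 to 17534 in injured eyes and 12955 to 14641 in sham eyes. Of these markers elavl4 was above the empty positions on 0 arrays, atoh7 on 1 and gap43, a protein of growth cones, on 2. Among those above on 9 arrays, alcama stood at 0.80 ± 0.35, rbpms2b at 0.35 ± 0.32 and inab at 0.12 ± 0.29. The others above on 9, isl2a, robo2 and tbr1b, stood at -0.04 ± 0.30, -0.05 ± 0.31 and -0.45 ± 0.33. Above on 7 arrays were isl2b (0.07 ± 0.39) and eomesa (-0.79 ± 0.32). At 24 h, when tuba8l3 stood at 1.09, 11 of 13 epithelial genes were above 0, at a median log2 value of 0.72. Of these 6 had an unadjusted p under 0.05 in limma, against 2.23% of all probes above 0 at that p, and 0 passed after adjustment. The single-array medians of the 13 genes were 0.01, 1.19 and 0.74. The sum over 12 of them was 17951 to 27977 in injured eyes and 10550 to 19018 in sham eyes. At 168 h 11 of 14 leukocyte and microglia genes were above 0, at a median log2 value of 0.20. Of these 4 had an unadjusted p under 0.05 in limma, against 4.23% of all probes above 0 at that p, and 0 passed after adjustment. Among these genes lyz was above the empty positions on 1 array, and apoeb also stands on the list of Müller glia markers. The sum of the 14 genes was 12208 to 26688 in injured eyes and 10886 to 14208 in sham eyes. The part of these cell types in the tubulin values was not tested.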

How the data were processed

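Total RNA pools of injured, sham and unoperated zebrafish eyes were amplified and coupled to Cy3 or Cy5, per the labels' protocols. Each scanner file lists, per the file headers, foreground and local background intensity for 14784 spots (14067 zebrafish, 173 Arabidopsis and 544 empty) and the percent of saturated pixels in each spot. The authors' deposited table gives a log2 value for each spot at each time, with limma named in the submitters' processing notes and no further step given. Its scale and direction follow from the comparison with the array ratios. Its column medians were 0.01, 0.00 and 0.01 at 3, 24 and 168 h, and any centring by the authors is unknown.

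From the intensities, limma 3.58.1 in R 4.3.3 corrected the background (normexp, offset 50) and normalised by loess within arrays, with control and bad spots at weight 0. A single fit of the 9 injured-against-sham arrays held an injury coefficient per time and a common dye effect, followed by Benjamini-Hochberg adjustment over all zebrafish probes at 0.05. This left 5 residual degrees of freedom, the labels call the pools biological replicates, and the number of arrays limits the precision. Each SE was moderated by limma toward the spread of all probes, with 9.99 prior degrees of freedom. Single-channel levels were normalised with Aquantile. Where a group had no spot above the empty positions, no fold is given.

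RefSeq named 7755 probes, and 3 probes with a tubulin name cut short in the files stayed unnamed. A gene is represented by its brightest probe. The members and lists were chosen with earlier results of these data known. Named genes were every tubulin, per microtubule list up to 2 genes on each side of 0 with the smallest p of the average over times, and the 5 genes most alike to each member. Which transcripts each oligonucleotide binds was not analysed, so probes of closely related tubulins may share signal. Alternatives changed the background correction, normalisation, dye term, dye orientation, filter, arrays, choice of probe and source of values.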

Additional observations from a re-analysis of the deposited data

Results flagged for a closer look

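For 3 probes every array of 1 time lay on the other side of 0 from every array of another. All pairs of times were searched, for the members, the brightest probes of the other tubulins, every tuba8l4 probe and the listed genes named above. The share of all probes that do the same was not counted, so the number found is a description only. For tubb2 probe 1, above the empty positions on 4 arrays, the plain mean log2 ratio was -0.25 at 24 h and 0.39 at 3 h, a difference of -0.64 (adjusted p = 0.9995 in limma). For tuba8l4 probe 5 it was 0.58 at 168 h and -0.41 at 3 h, a difference of 0.98 (adjusted p = 0.928 in limma). For agbl5, the tubulin carboxypeptidase, it was -0.90 at 168 h and 0.61 at 24 h, a difference of -1.51 (adjusted p = 0.996 in limma). None of the 3 differences passed over all probes. Groups of 3 arrays are too small to be searched for single outlying arrays.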

How the results depend on the processing

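The brightest tubb5 probe at 168 h, main value 2.31, stood at 1.86 without background correction, at 1.81 in the authors' deposited table and at 0.81 as the mean of its 4 probes, of which 2 were never above the empty positions. Leaving out each array in turn gave 2.17 to 2.51. The tuba8l3 value at 24 h, main 1.09, stood at 0.81 without background correction, 1.33 with subtracted background, 0.76 in the authors' deposited table and 0.25 as the mean of its probes, and 1.01 to 1.21 with an array left out. Its 168 h value, main 1.34, stood at 0.59 as the mean of its probes and 1.01 to 1.59 with an array left out, and its 3 h value, main 0.40, at 0.70 with subtracted background. The dimmer probes depended on the background step too. With subtracted background at 168 h, tubb5 probe 2 stood at 1.59 (main 0.78), where probe 1 stood at 2.53. Probe 3 of tuba8l3 stood at 1.75 (main 0.59) and its probe 2 at -1.11 (main -0.17), where probe 1 stood at 1.86. Without background correction these dimmer probes stood at 0.27, 0.33 and -0.01. The tuba1b value at 168 h, main 0.64, stood at 1.56 with subtracted background and 0.45 to 0.85 with an array left out. It ran from -1.66 to 0.28 at 24 h and from -0.13 to 2.05 at 3 h with an array left out. With Cy5 read as injured on each array, as the labels state, no dye effect can be fitted beside the injury and 6 of 9 arrays change sign. That reading gave -0.59 for tubb5 at 168 h, -0.0022, -0.27 and -0.53 for tuba8l3 at 3, 24 and 168 h, and -1.81, 0.56 and -0.58 for tuba1b. Under it 1 of 90 tubulin and microtubule probes passed at 3 h, 2 at 168 h and 11 for the average, against 0 in limma otherwise. Among all probes 387 of 14067 passed under it at 3 h, 401 of 14067 at 168 h and 1863 of 14065 for the average. In the main fit 1, 2, 11 and 8 of the 90 probes had an unadjusted p under 0.05 at 3, 24, 168 h and for the average. Under the other alternatives those counts ran up to 4, 5, 15 and 12, and with dim probes left out they were 0, 2, 7 and 7 of 56. Over all probes at 168 h, where 0 passed as reported, 5 passed without background correction, 1 with subtracted background, 1 with median centring, 10 without array 1 of that time, 1 without 3 h array 2 and 401 under the reading of the labels. Signal near the empty positions, for tuba1b in Cy5 above all, limits what can be read. Each ratio already pairs the injured and the sham pool of its array. No paired analysis was possible because, beyond that, pool numbers link no pools across the times.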
